A study of Homo sapiens with 4 samples.

Results

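The genes of mevalonate, cholesterol and fatty acid synthesis were examined in MDA-MB-468, a human breast cancer cell line with the p53 mutation R273H, on 4 whole-transcript Affymetrix microarrays (Human Gene 1.0 ST). The set was named as 35 genes that belong to or govern lipid synthesis under the sterol regulatory element-binding proteins (SREBPs). It was chosen with earlier results of these data known. Of the 35, 33 had a value of their own among 18417 genes compared. On 2 arrays (NS) the cells carried a non-targeting lentiviral shRNA, and on 2 arrays (p53si-1) a lentiviral shRNA against p53. All cells were grown in medium with 10% fetal bovine serum and all arrays started from 300 ng of total RNA. The time between transduction and RNA isolation is 48 h in the methods and 72 h in the results text, so it is not settled. The arrays hold 1 cell line and 1 p53 shRNA sequence, and the replicates are stated to be independent experiments. FDFT1 (squalene synthase) is not analysed here, and HSD17B7 (a sterol ketone reductase) shares its only transcript cluster with another gene symbol, so neither has a value. The p53 transcript is likewise not analysed here, so no value is given for the knockdown.

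Cholesterol is built from acetyl-CoA. The mevalonate arm condenses acetyl-CoA into mevalonate and then into prenyl diphosphates, the sterol arm joins these into squalene and folds and trims the product to cholesterol, and a side branch feeds protein prenylation, dolichol and ubiquinone. Fatty acid synthesis draws on the same acetyl-CoA through malonyl-CoA, and elongases and desaturases then shape the chains. SREBP2, encoded by SREBF2, mainly drives the cholesterol genes and SREBP1, encoded by SREBF1, mainly the fatty acid genes. Both are held in the endoplasmic reticulum with the escort SCAP by the INSIG proteins when sterols are plentiful and are cleaved to active factors when sterols fall. Mutant p53 proteins have been described to act with SREBPs at promoters of mevalonate genes in breast cancer cells.

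SREBPs bind the sterol regulatory element (SRE) and the E-box, usually beside sites for NF-Y and Sp1. RefSeq promoter windows of GRCh38.p14 run from 250 bases before to 50 bases after a start of a gene. They were found for 30 of the 33 measured genes, 43 windows in all. Some genes have several windows, at different starts. Both strands were searched for the SRE cores TCACNCCAC and CACNCCAC (every match of the longer core also matches the shorter), the E-box CACGTG, the NF-Y motif CCAAT and the Sp1 motif GGGCGG. Of the 43 windows, 60.5% held CCAAT and 86.0% held GGGCGG, against 34.61% and 44.95% of all 35116 windows in the table. The shorter SRE core was in 16.3% of the windows, from ACACA, IDI1, INSIG1, SC5D, SCD and SREBF2, against 5.87% of all windows. The longer core was in the window of SREBF2 alone among these genes, and in 1.13% of all windows. The E-box was in 14.0% of the windows, from ELOVL5, INSIG1, LSS, SC5D and SCAP, against 7.26% of all windows. Windows of the same gene can overlap, as those of SC5D do, so a site can count more than once in these shares. These are matches of letters and not measured binding sites.

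The 5 windows printed here are those of SREBF2, which held the longer SRE core, of INSIG1, which like SC5D held both an SRE core and an E-box, of SCD, the gene with the largest difference among those with an SRE core, and of DHCR7 and FADS1, which had the largest differences of the sterol and the fatty acid genes. For DHCR7 the first of its 2 windows is shown, which lies at a start inside the gene. The other, at the outer end of the gene, held no match of any of the motifs. Each is written 5′ to 3′ on the gene's own strand, with capitals for matches of any of the motifs.

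SREBF2 (chr22:41832855-41833154, plus strand): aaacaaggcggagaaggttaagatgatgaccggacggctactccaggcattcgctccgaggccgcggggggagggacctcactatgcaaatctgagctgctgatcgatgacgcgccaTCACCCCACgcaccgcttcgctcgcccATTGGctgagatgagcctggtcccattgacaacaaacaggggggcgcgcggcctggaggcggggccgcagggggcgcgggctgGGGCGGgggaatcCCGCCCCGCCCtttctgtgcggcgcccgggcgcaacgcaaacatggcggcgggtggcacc

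INSIG1 (chr7:155297628-155297927, plus strand): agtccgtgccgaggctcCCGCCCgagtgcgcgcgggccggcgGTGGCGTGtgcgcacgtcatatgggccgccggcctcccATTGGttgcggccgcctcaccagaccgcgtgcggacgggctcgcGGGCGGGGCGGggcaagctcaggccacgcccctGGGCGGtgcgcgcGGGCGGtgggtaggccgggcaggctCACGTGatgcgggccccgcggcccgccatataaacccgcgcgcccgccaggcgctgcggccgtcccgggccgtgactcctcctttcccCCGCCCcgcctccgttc

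SCD (chr10:100346983-100347282, plus strand): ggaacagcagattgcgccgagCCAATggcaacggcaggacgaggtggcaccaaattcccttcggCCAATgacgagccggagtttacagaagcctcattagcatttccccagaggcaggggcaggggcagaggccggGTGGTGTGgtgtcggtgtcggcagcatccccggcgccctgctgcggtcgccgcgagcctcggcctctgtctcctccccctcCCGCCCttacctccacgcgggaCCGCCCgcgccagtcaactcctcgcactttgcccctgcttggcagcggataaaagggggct

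DHCR7 (chr11:71448344-71448643, minus strand): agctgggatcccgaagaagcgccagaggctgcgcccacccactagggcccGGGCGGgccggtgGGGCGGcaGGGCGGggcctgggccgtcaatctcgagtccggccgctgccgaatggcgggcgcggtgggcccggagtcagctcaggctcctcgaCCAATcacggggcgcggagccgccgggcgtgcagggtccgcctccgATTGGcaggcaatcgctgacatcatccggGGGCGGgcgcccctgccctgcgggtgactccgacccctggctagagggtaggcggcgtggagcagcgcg

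FADS1 (chr11:61816954-61817253, minus strand): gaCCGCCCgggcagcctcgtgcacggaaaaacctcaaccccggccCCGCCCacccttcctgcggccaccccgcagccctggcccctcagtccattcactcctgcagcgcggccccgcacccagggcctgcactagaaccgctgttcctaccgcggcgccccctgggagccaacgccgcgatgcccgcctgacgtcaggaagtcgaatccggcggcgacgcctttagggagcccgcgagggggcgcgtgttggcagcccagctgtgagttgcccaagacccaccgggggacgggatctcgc

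The values are log2 RMA signals of 1 transcript cluster per gene, and a log2 fold change is the mean of the p53si-1 arrays minus the mean of the NS arrays. Because the genes were chosen with earlier results of these data known, their counts beside all genes are descriptions and not tests. The p53si-1 mean was below the NS mean for 31 of the 33 genes, against 52.6% of all genes. The median log2 fold change was -0.13, against -0.01 over all genes. In 20 of the 33, both p53si-1 arrays lay below both NS arrays, against 22.6% of all genes, and in 1 (INSIG2) both lay above, against 19.9%. The largest differences were those of FADS1, DHCR7, CYP51A1 and SQLE, at 1.56-fold, 1.47-fold, 1.42-fold and 1.40-fold lower. Only FADS1 was lower by over 1.5-fold, the criterion of the study, which 0.652% of all genes met, and none was higher by as much, against 0.271%. In bulk RNA, fewer cells that express a gene and less RNA of it per cell cannot be told apart.

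No gene of the set passed an adjusted p of 0.05 over all genes from limma, where 0.0760% of all genes were called lower and 0.0326% higher. The smallest adjusted p was 0.0955, shared by FADS1 and SQLE. At an unadjusted p under 0.05 from limma 11 of the 33 were lower, against 6.80% of all genes, and none was higher, against 5.45%. Leaving out an array leaves a group of 1, so that count is not given at those settings. With a prior variance fitted as a trend over the signal, SQLE, CYP51A1 and DHCR7 passed, with adjusted p of 0.0337, 0.0411 and 0.0479 from limma. How many of all genes passed at that setting was not counted, so this has no background. With 2 arrays against 2, an exact two-sided permutation test of a single gene cannot give a p below 0.333.

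**Figure D1:**
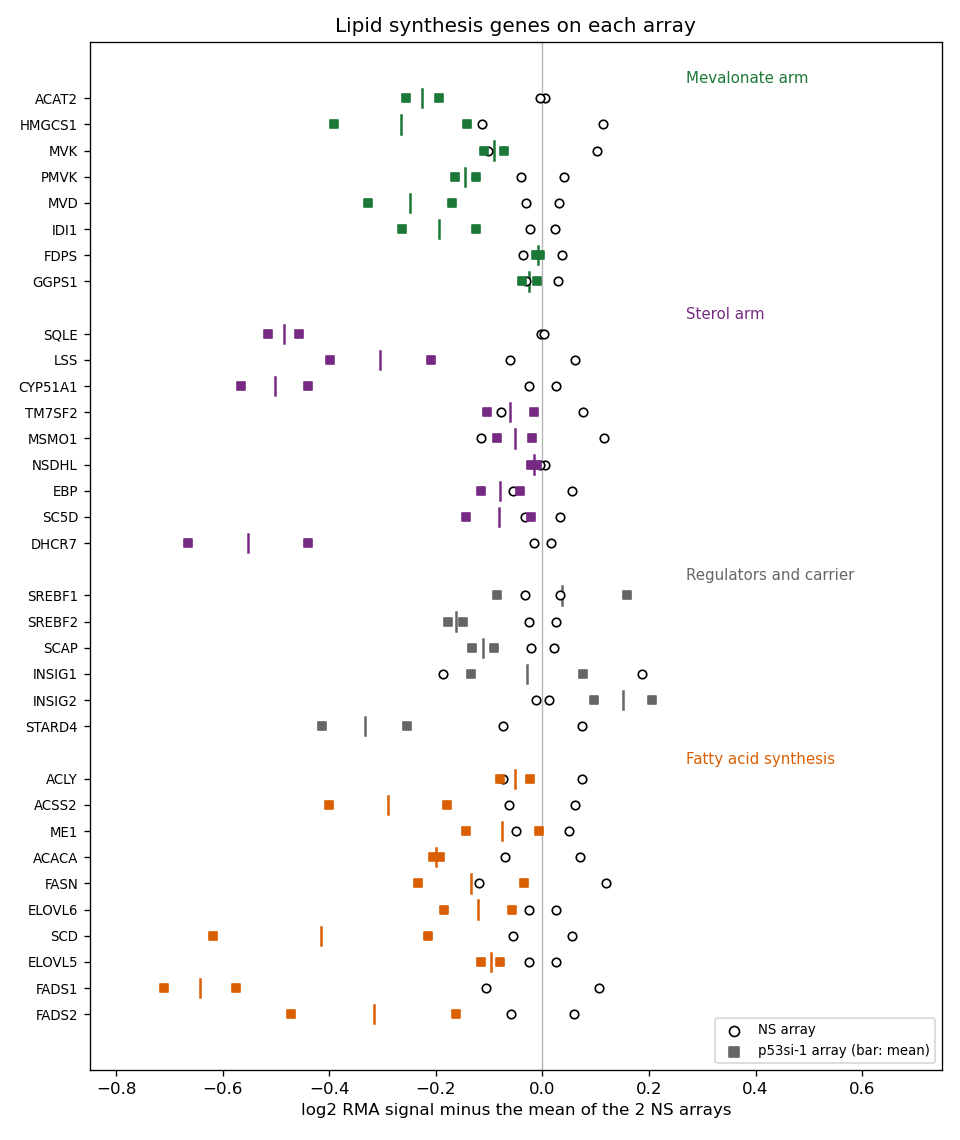
Log2 RMA signal on each array, given relative to the NS mean, for the 33 measured genes in pathway order. Open circles show NS and filled squares p53si-1, with a bar at each p53si-1 mean; the p53si-1 arrays of SQLE, CYP51A1, DHCR7 and FADS1 lie clear of the NS arrays to the left, while those of INSIG2 lie to the right.

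In the mevalonate arm the p53si-1 mean was the lower one for all 8 genes, against 52.6% of all genes. The groups of 5 did not overlap, against 22.6% of all genes with both p53si-1 arrays below both NS arrays. HMGCS1, which makes HMG-CoA, had log2 signals of 8.18 and 7.95 with NS and 7.92 and 7.67 with p53si-1. The higher p53si-1 array thus came within 0.03 of the lower NS array, and the difference, a log2 fold change of -0.27 (standard error 0.12), was similar in size to the gap between replicates. MVD, the decarboxylase that yields isopentenyl diphosphate, was at 8.82 and 8.76 with NS and 8.62 and 8.46 with p53si-1, a log2 fold change of -0.25 (standard error 0.09). ACAT2, the cytosolic thiolase of the first step, was at 8.92 and 8.91 against 8.65 and 8.72, a log2 fold change of -0.23 (standard error 0.08). The gap between the groups was 0.19 for ACAT2, wider than between its replicates, and 0.14 for MVD, whose p53si-1 arrays were 0.16 apart. IDI1, the isomerase of the isopentenyl units, was at 9.64 and 9.59 with NS and 9.49 and 9.35 with p53si-1 (log2 fold change -0.19). The kinases PMVK and MVK were at -0.14 and -0.09, and the groups of MVK overlapped.

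At the end of this arm FDPS, the farnesyl diphosphate synthase, was at a log2 fold change of -0.01 and its 95% interval ran from -0.21 to 0.19. GGPS1, which makes geranylgeranyl diphosphate for protein prenylation, was at -0.02, with an interval of -0.22 to 0.17. The arrays of the groups overlapped for both. The median of the arm was -0.17, and 2 genes, ACAT2 and MVD, were lower at an unadjusted p under 0.05 from limma (0.0309 and 0.0348), against 6.80% of all genes.

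The 9 measured genes of the sterol arm also all had a lower p53si-1 mean, against 52.6% of all genes. Of the 9, 4 lay between -0.55 and -0.30 and 5 between -0.08 and -0.02. DHCR7, the reductase that completes cholesterol, was at 10.95 and 10.91 with NS and 10.49 and 10.27 with p53si-1. CYP51A1, the lanosterol demethylase, was at 9.87 and 9.82 with NS and 9.40 and 9.28 with p53si-1. SQLE, the squalene epoxidase, was at 9.67 on both NS arrays and at 9.21 and 9.15 with p53si-1. In these 3 genes the groups were separated by at least 0.41 on the log2 scale, and the replicates by at most 0.22. Their log2 fold changes were -0.55, -0.50 and -0.49, with standard errors of 0.10, 0.09 and 0.08 and adjusted p of 0.122, 0.106 and 0.0955 from limma.

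LSS, the lanosterol synthase that closes the sterol rings, was at 8.43 and 8.56 with NS and 8.09 and 8.28 with p53si-1, a log2 fold change of -0.30 (standard error 0.10). The other enzymes of the arm were TM7SF2 (a sterol reductase), MSMO1 (the methylsterol oxidase), NSDHL (a sterol dehydrogenase), EBP (the sterol isomerase) and SC5D (the desaturase). Their log2 fold changes were -0.06, -0.05, -0.02, -0.08 and -0.08, and each 95% interval held 0. Those of EBP and SC5D ran from -0.29 to 0.13 and from -0.30 to 0.13. MSMO1 differed more between its NS arrays, at 9.63 and 9.40, than between the groups. The median of the sterol arm was -0.08, and it was -0.168 without NS replicate 2 and -0.143 without p53si-1 replicate 2.

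CYP51A1 has another transcript cluster on the array, whose log2 fold change was -0.43. FDPS is also named on 2 clusters that carry several gene symbols, which were not used. RefSeq names pseudogenes of CYP51A1, FDPS, IDI1 and SCD, and whether their transcripts reach the probes was not tested.

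**Figure D2:**
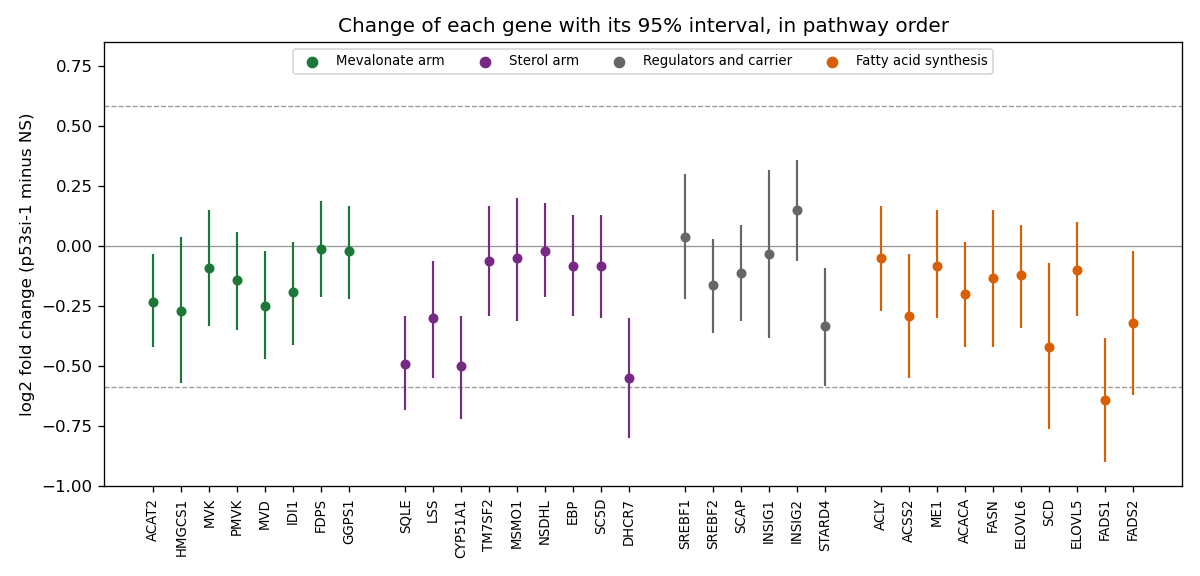
Difference of the group means on the log2 scale, p53si-1 minus NS, with 95% intervals from limma for the 33 genes in pathway order within 4 roles. Dashed lines mark 1.5-fold; the point of FADS1 alone lies beyond the lower one, and 11 intervals lie wholly below 0.

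Among the 6 regulators and carriers the p53si-1 mean was the lower one for 4, against 52.6% of all genes. In 3 of the 6, both p53si-1 arrays lay below both NS arrays, against 22.6% of all genes. SREBF2 was at 9.22 and 9.17 with NS and 9.05 and 9.02 with p53si-1, a log2 fold change of -0.16 (95% interval -0.36 to 0.03). SREBF1 was at 7.55 and 7.49 with NS and 7.68 and 7.44 with p53si-1, a log2 fold change of 0.04 (-0.22 to 0.30). The p53si-1 arrays of SREBF1 thus lay on either side of the NS arrays, whereas those of SREBF2 lay below them. SCAP was at 8.70 and 8.74 against 8.63 and 8.59, a log2 fold change of -0.11 (-0.31 to 0.09). The signals are of mRNA and give nothing on cleavage of the SREBP proteins.

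The means of the 2 INSIG genes differed in opposite directions, and both 95% intervals held 0. INSIG1, itself a target of SREBPs and a common readout of their activity, was at 8.44 and 8.06 with NS and 8.33 and 8.12 with p53si-1. The p53si-1 arrays lay between the NS arrays, and the log2 fold change was -0.03 (95% interval -0.38 to 0.32, the widest of the set). INSIG2 was at 8.77 and 8.80 with NS and 8.88 and 8.99 with p53si-1, a log2 fold change of 0.15 (-0.06 to 0.36). STARD4, an SREBP2-responsive carrier that moves sterols between membranes, was at 6.95 and 7.10 with NS and 6.77 and 6.61 with p53si-1. Its log2 fold change of -0.33 (standard error 0.10) was the largest of the 6 genes in this group, and 1.26-fold lower. The median of the group was -0.07, and it was -0.031 without NS replicate 1, -0.139 without NS replicate 2, -0.132 without p53si-1 replicate 1 and -0.007 without p53si-1 replicate 2.

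The p53si-1 mean was the lower one for all 10 genes of fatty acid synthesis as well, against 52.6% of all genes. The groups of 7 did not overlap, against 22.6% of all genes lower in that way. The 4 with the largest differences included all 3 fatty acid desaturases of the set. FADS1, a desaturase of polyunsaturated fatty acids, was at 6.62 and 6.84 with NS and 6.02 and 6.15 with p53si-1, a difference of -0.64 on the log2 scale with a standard error of 0.11 (limma, adjusted p = 0.0955). FADS2, the desaturase that acts before FADS1 in that pathway, was at 6.69 and 6.81 with NS and 6.59 and 6.28 with p53si-1 (log2 fold change -0.32, standard error 0.12). SCD, which makes monounsaturated fatty acids, was at 10.06 and 9.95 with NS and 9.79 and 9.39 with p53si-1 (log2 fold change -0.42, standard error 0.14). The p53si-1 arrays of SCD differed by 0.40 between themselves and those of FADS2 by 0.31, while those of FADS1 lay within 0.14.

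The call of FADS1 at 1.5-fold depended on single arrays. Without NS replicate 2 its log2 fold change was -0.536 and no gene of the set was lower by over 1.5-fold. Without p53si-1 replicate 1 it was -0.575, and DHCR7 at -0.665 and SCD at -0.619 were the genes past that size. Without p53si-1 replicate 2 SCD was at -0.214 and FADS2 at -0.162.

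Among the enzymes that supply acetyl-CoA and NADPH, ACSS2, which activates acetate, was at 8.77 and 8.64 with NS and 8.53 and 8.30 with p53si-1, a log2 fold change of -0.29 (standard error 0.11). ACLY, which splits citrate, and ME1, the malic enzyme, were at -0.05 and -0.08, with overlapping arrays. ACACA, the carboxylase that commits acetyl-CoA to fatty acids, was at 7.60 and 7.74 against 7.46 and 7.48, a log2 fold change of -0.20 (95% interval -0.42 to 0.02). FASN, the synthase, was at 8.53 and 8.76 with NS and 8.61 and 8.41 with p53si-1. The groups of FASN overlapped, at a log2 fold change of -0.13 (-0.42 to 0.15), while those of ACACA did not. The elongases ELOVL6 and ELOVL5 were at -0.12 and -0.10, with standard errors of 0.09 and 0.08. The median over fatty acid synthesis was -0.17, the same as in the mevalonate arm to this precision, and whether the arms differ was not tested.

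**Figure D3:**
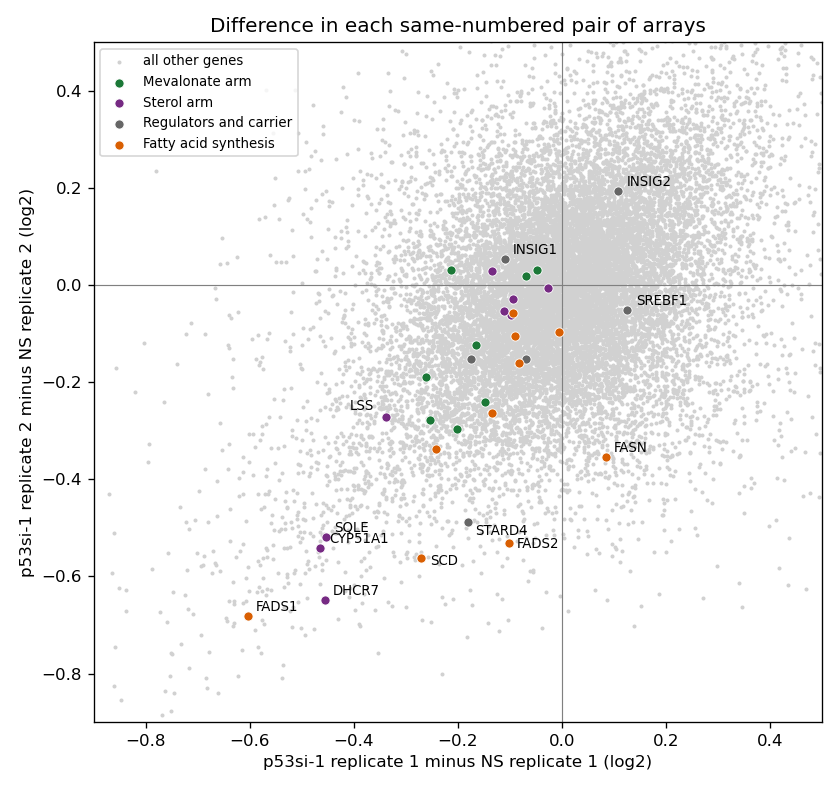
Log2 difference between p53si-1 and NS arrays of replicate number 1 (x axis) and of number 2 (y axis), with all genes in grey and the 33 genes in colour by role; grey points beyond the axes are not drawn. FADS1, DHCR7, CYP51A1 and SQLE are low in both pairs, and FASN and SREBF1 lie in different directions in the 2 pairs.

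The same difference was taken within each same-numbered pair of arrays, which share no array. Of the 33 genes, 25 were lower with p53si-1 in both pairs, against 32.8% of all genes. The medians of the set were -0.13 for number 1 and -0.15 for number 2, where those over all genes were 0.00 and -0.02. In the sterol arm 8 of 9 genes were lower in both pairs, in fatty acid synthesis 9 of 10, in the mevalonate arm 5 of 8 and among the regulators 3 of 6. FADS1 was at -0.60 and -0.68, DHCR7 at -0.46 and -0.65, CYP51A1 at -0.46 and -0.54, and SQLE at -0.45 and -0.52. Each of these 4 was thus lower by at least 0.45 in both pairs. The pairs of other genes were less alike, with FASN at 0.08 and -0.35, FADS2 at -0.10 and -0.53, and STARD4 at -0.18 and -0.49.

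Several sterol-responsive genes also differed between replicates. INSIG1 was lower on replicate 2 than on replicate 1 by 0.37 with NS and by 0.21 with p53si-1, and HMGCS1 by 0.23 and 0.25. MSMO1 was lower on replicate 2 by 0.23 with NS and by 0.07 with p53si-1. For INSIG1 and MSMO1 the NS arrays were therefore further apart than the group means, and for HMGCS1 nearly as far. For FASN the difference of replicate 2 from replicate 1 was 0.24 with NS and -0.20 with p53si-1.

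**Figure D4:**
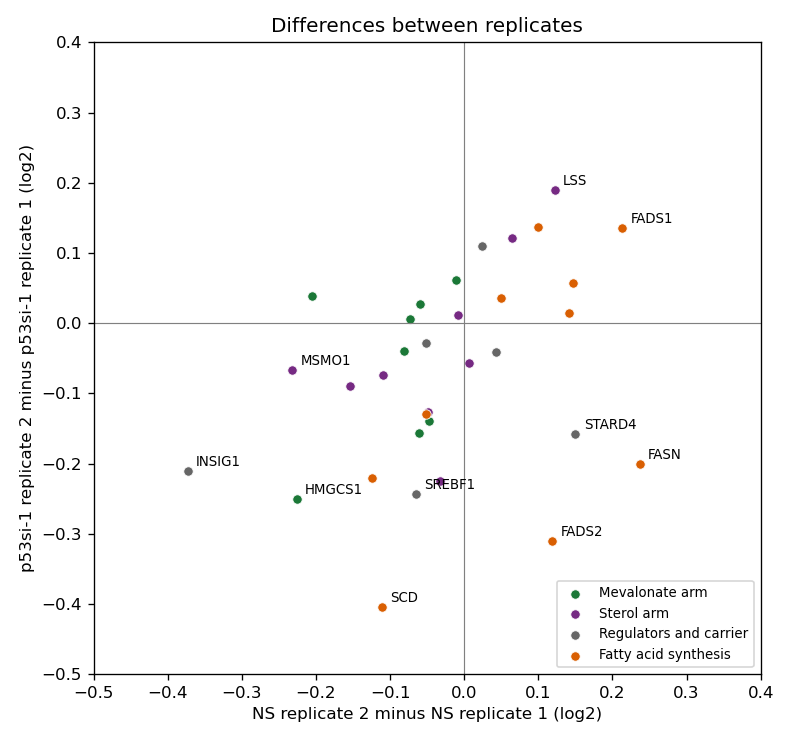
Log2 difference of replicate 2 minus replicate 1 in the NS arrays (x axis) and in the p53si-1 arrays (y axis) for the 33 genes, coloured by role. INSIG1 and HMGCS1 were lower on replicate 2 in both groups, and SCD and FADS2 were low on p53si-1 replicate 2.

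Other genes of lipid metabolism were compared from lists named by function. No gene of these lists passed an adjusted p of 0.05 from limma. Of 23 measured further genes of fatty acid synthesis, elongation and activation, 14 had a lower mean (60.9%, against 52.6% of all genes). At an unadjusted p under 0.05 from limma 6 were lower and none higher, against 6.80% and 5.45% of all genes. FADS3, the neighbour of FADS1 and FADS2, was at 7.62 and 7.67 with NS and 6.98 and 6.97 with p53si-1, a difference of -0.67 on the log2 scale with a standard error of 0.08 (limma, adjusted p = 0.0594). The elongase ELOVL4 was at -0.45, and HACD4, of the family of dehydratases that serve elongation, at -0.39. The median of this list was -0.06.

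Of 14 measured genes of glycerolipid synthesis and storage, 12 had a lower mean, against 52.6% of all genes. They included LPIN1, a phosphatidate phosphatase and known SREBP target, at -0.45, the acyltransferase GPAM at -0.31 and the lipase LIPE at -0.23, and the median was -0.11. Of 12 genes that use the isoprenoid products, 7 had a lower mean (58.3%, against 52.6% of all genes) and 3 were lower at an unadjusted p under 0.05 from limma, against 6.80%. PGGT1B, the catalytic subunit of the enzyme that attaches geranylgeranyl groups to small GTPases, was at 8.41 and 8.42 with NS and 7.70 and 7.74 with p53si-1. Its difference of -0.69 (limma, standard error 0.08, adjusted p = 0.0581) was the largest on these lipid lists. COQ2, of ubiquinone synthesis, and RABGGTA, of Rab prenylation, were at -0.38 and -0.20.

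The medians of the remaining lists lay between -0.08 and 0.03. In the order below, the shares of genes with a lower mean were 71.4%, 35.3%, 46.2% and 59.1%, against 52.6% of all genes. Of 7 measured further sterol genes 5 had a lower mean, with LBR (a sterol reductase of the nuclear envelope) at -0.23, IDI2 at -0.16 and TMEM97 at 0.11. The log2 signals of IDI2 were low, at 3.63 to 3.95. Of 17 genes of sterol uptake, esterification and efflux 6 had a lower mean, and their median was 0.02. OSBP (an oxysterol-binding protein) and the receptor LRP1 were at -0.30 and -0.29, and MYLIP, a ubiquitin ligase, was at 0.23. Of 13 genes of SREBP processing and turnover 6 had a lower mean, with a median of 0.03 and with SPRING1, a factor for SREBP cleavage, at 0.20, UBXN8 at 0.17 and NPLOC4 at -0.14. Of 22 genes of fatty acid oxidation 13 had a lower mean, with a median of -0.04, CPT2 (mitochondrial import) at -0.31, ACAA2 at 0.21 and PPARD at -0.21.

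**Figure D5:**
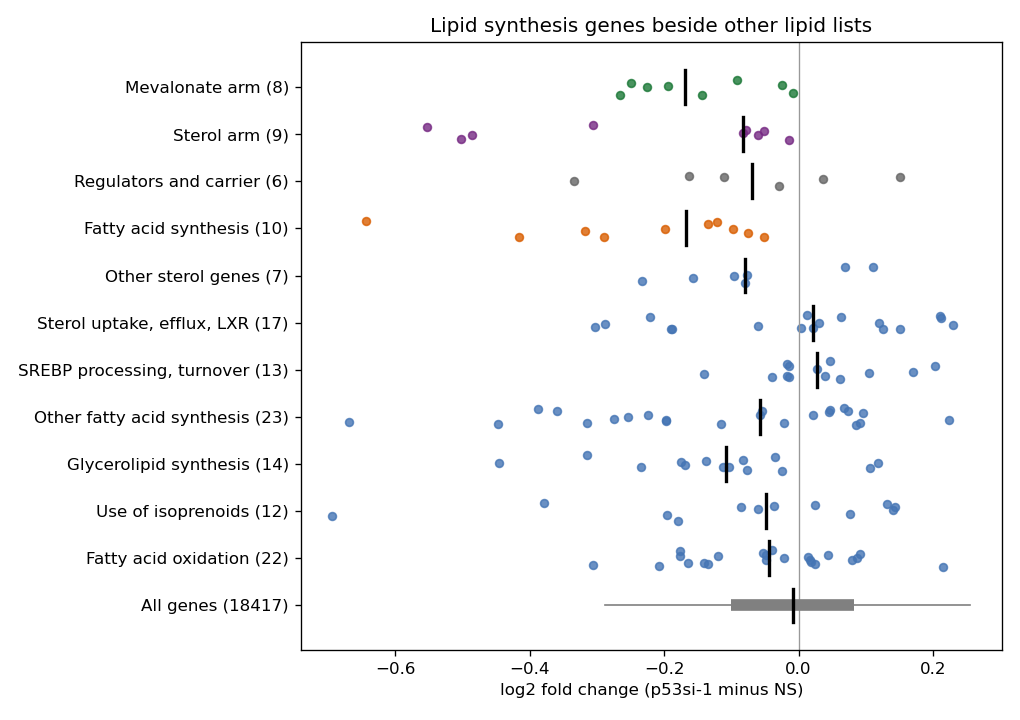
Difference of the group means on the log2 scale (p53si-1 minus NS), with 1 point per measured gene, for the 4 roles and for 7 further lipid lists, with the number of genes in brackets. Black bars are medians, and the bottom line spans the central 90% of all genes with its middle 50% thickened; the mevalonate and fatty acid medians lie at -0.17 and that of sterol uptake and efflux at 0.02.

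The cells were checked against markers. The epithelial markers KRT8, KRT18, KRT19 and EPCAM lay between 11.78 and 12.59 on every array and CDH1 between 9.38 and 9.60, while the leukocyte gene PTPRC was at 3.01 to 3.14 and CD3E at 3.63 to 3.88. Not every marker of other cell types was low, since CD14 lay at 9.69 to 9.92 and KDR at 8.36 to 9.18. The leukocyte marker CD68 lay at 6.26 to 6.81. Of the fibroblast markers, COL1A1 lay at 7.05 to 7.32 and COL1A2 at 5.64 to 5.81, while DCN lay at 3.25 to 3.37 and LUM at 3.04 to 3.15. The adipocyte markers ADIPOQ, PLIN1, FABP4, LEP and CIDEC lay between 2.65 and 5.60. The mean of the 5 epithelial markers was 11.715 and 11.611 with NS and 11.747 and 11.616 with p53si-1, and that of 5 leukocyte markers 5.599 and 5.478 against 5.567 and 5.513. Of 29 markers measured, none passed an adjusted p of 0.05 from limma and 2 had an unadjusted p under 0.05 (against 6.80% of all genes lower and 5.45% higher), the basal keratin KRT5 at -0.41 and KDR at 0.50. Their part in the differences above was not tested.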

How the data were processed

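RNA of 4 samples was hybridized to 1 Affymetrix Human Gene 1.0 ST array each. The authors deposited log2 signals, 1 for each transcript cluster on an array. GCOS, RMA and Affymetrix Expression Console are the tools listed in the processing notes of the submitters, without settings. The log2 scale is judged from the range of 1.75 to 14.31 and from array medians of 5.66 to 5.69. Because RMA equalizes the distributions of arrays, a change shared by most transcripts would not be seen, and fold changes can be understated. The number of arrays limits the precision.

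Of 33297 transcript clusters, 19460 name 1 gene symbol in the platform annotation, 1754 several and 12083 none here. The single-symbol cluster with the highest mean stood for each of 18417 genes, without a filter or further normalization. Differences were fitted across all genes in R 4.3.3 with the functions lmFit and eBayes of limma 3.58.1, which gave 4.20 prior beside 2 residual degrees of freedom, two-sided, with Benjamini-Hochberg adjustment over all genes. The steps were tested on simulated data. All members are named. Per-array values are given for the 4 with the largest difference in each role and for HMGCS1, SQLE, SREBF1, SREBF2, INSIG1, ACACA, FASN and SCD, and up to 3 genes with the largest difference are named for each further list. The printed promoters and the neighbours of FADS1 were chosen after their values were seen. The members and lists were chosen with earlier results of these data known.

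Alternatives changed the cluster per gene, the filter on dim genes, the normalization, the prior variance, the fold threshold and the block, and left out each array.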

Additional observations from a re-analysis of the deposited data

How the results depend on the processing

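Of 363 recalculations of single genes, 350 kept their direction and their side of an adjusted p of 0.05 from limma. At some settings, named below, the direction could not change. In 10 the sign changed, for 8 genes with differences near 0. Without 1 array, MVK ran from -0.193 to 0.012, FDPS from -0.046 to 0.028, GGPS1 from -0.054 to 0.005, TM7SF2 from -0.138 to 0.016, MSMO1 from -0.168 to 0.064 and INSIG1 from -0.215 to 0.158, each turning positive without NS replicate 1. INSIG1 was also at 0.076 without p53si-1 replicate 2. ACLY ran from -0.124 to 0.022, turning without NS replicate 2, and SREBF1 from -0.085 to 0.158, turning without p53si-1 replicate 1. FDPS was at 0.003 after median centring. In the other 3, with a prior variance that depends on the signal, SQLE, CYP51A1 and DHCR7 passed. That made 3 genes of the set instead of 0, and how many of all genes passed at that setting was not counted. The number lower by over 1.5-fold was 10 at a threshold of 1.2-fold and 0 at 2-fold. Over the settings without 1 array it ran from 0 to 2. The share of all genes was not counted at these thresholds and settings. The number with the p53si-1 arrays wholly below NS is not given there, since 1 array separates more easily from 2. Without 1 array the median over all 33 genes ran from -0.185 to -0.125. The range was -0.206 to -0.124 in the mevalonate arm and -0.168 to -0.114 in the sterol arm. The sterol median with all arrays was -0.082, outside that range. For the regulators the range was -0.139 to -0.007, and in fatty acid synthesis -0.240 to -0.137. With a group of 1 array, that array is assumed to vary like the other group. Same-numbered replicates deviated together across all genes (correlation 0.24), but no source says that a number marks a shared culture or day. With the replicate block, 0 genes of the set passed and the smallest adjusted p was 0.0663 from limma. Averaging clusters, leaving out genes with a mean log2 signal under 5, quantile normalization and a robust prior variance changed no call. Quantile normalization also changed no sign. The prior variance and the replicate block leave the log2 fold changes as they are, so no sign could change there. No gene of the set was dim enough to be left out, and averaging clusters altered the log2 fold change of CYP51A1 alone. The cause of these movements was not tested.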

Other observations

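FADS1, FADS2 and FADS3 lie side by side on chromosome 11. FADS1, FADS2 and FADS3 were at log2 fold changes of -0.64, -0.32 and -0.67. On the side of FADS1, FEN1, a nuclease of DNA replication, was at 9.19 and 9.25 with NS and 9.39 and 9.42 with p53si-1, a log2 fold change of 0.19. TMEM258, next to FEN1, was at 0.03 and MYRF at -0.08. On the side of FADS3, RAB3IL1 was at -0.19 and BEST1 at -0.07, and FTH1 is not analysed here. None of these genes passed an adjusted p of 0.05 from limma, and whether the FADS genes differ from their neighbours was not tested. The neighbours were looked up after the values of FADS1 and FADS3 had been seen.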
